A study of Rattus norvegicus with 54 samples.

Results

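The natriuretic peptide system was followed through 7 genes chosen by symbol: the peptides Nppa, Nppb and Nppc, the receptors Npr1, Npr2 and Npr3, and the protease gene Corin. All 7 symbols were found among the 40319 genes listed in every count table, and 6 passed the filter on low counts in every comparison, the exception being Nppc. The libraries came from left ventricular tissue of female athymic rats (F344/NJcl-rnu/rnu, 8 weeks old), collected 1 week after surgery. Sham animals had a sham operation, whose steps the paper does not describe. MI animals had the left anterior descending artery ligated and were left untreated, and MI + Cell Sheet animals had the same ligation and received a bi-level sheet of human smooth muscle cells and endothelial progenitor cells laid on the epicardium over the ischemic area. Each of the 3 treatment groups held 6 animals, and each heart gave tissue from the infarct zone (anterior wall), the border zone (lateral wall) and the remote zone (septum), so that the 54 libraries form 9 groups of 6. Only tissue below the ligation stitch was taken, the hosts lack mature T cells, and reads were aligned to the rat genome alone, so transcripts of the human sheet were not counted as such. GEO's labels use the term technical replicate for libraries that the study describes as separate hearts, and the p-values below measure the spread between these samples.

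Atrial natriuretic peptide (from Nppa) and B-type natriuretic peptide (from Nppb) are hormones of heart muscle cells that are released on wall stretch. In the ventricle, Nppa belongs to the fetal gene program, which is silenced after birth and returns under load and after infarction. Corin is a membrane protease of cardiomyocytes that cuts the atrial pro-peptide into its active form. The receptor Npr1 (guanylyl cyclase A) answers both hormones by making cGMP, Npr2 (guanylyl cyclase B) answers C-type natriuretic peptide (from Nppc), and Npr3 is a clearance receptor that takes up and removes all of them.

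Nppa and Nppb lie close together on rat chromosome 5, read in the same direction, and their levels had a Spearman rho of 0.63 over the 54 libraries, given as a description of libraries that share animals. Their start regions are shown because both peptides are the products that the comparisons turn on. RefSeq promoter windows on the GRCr8 build, which is not the build of the counts, were available for 6 of the 7 genes. Each window spans 250 bases before and 50 bases after the start, at chr5:163711934-163712233 for Nppa and chr5:163699758-163700057 for Nppb, both on the plus strand, with the starts 12176 bases apart. Capitals mark the GATA motif TGATAA and the M-CAT motif CATTCC, searched on both strands, which do not overlap each other here. Only these exact letters were searched, and other forms of either motif were left unmarked.
Nppa: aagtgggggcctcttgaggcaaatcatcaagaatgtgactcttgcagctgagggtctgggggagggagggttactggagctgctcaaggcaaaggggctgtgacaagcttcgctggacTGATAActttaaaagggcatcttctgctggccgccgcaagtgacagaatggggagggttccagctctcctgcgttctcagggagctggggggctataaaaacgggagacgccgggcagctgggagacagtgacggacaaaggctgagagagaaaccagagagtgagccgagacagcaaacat
Nppb: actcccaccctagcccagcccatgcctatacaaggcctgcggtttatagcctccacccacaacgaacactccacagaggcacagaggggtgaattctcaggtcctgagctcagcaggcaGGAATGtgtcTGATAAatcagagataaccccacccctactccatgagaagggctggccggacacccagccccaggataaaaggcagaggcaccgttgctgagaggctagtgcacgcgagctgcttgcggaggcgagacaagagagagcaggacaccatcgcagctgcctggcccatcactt
TGATAA begins 132 bases before the start in Nppa and 121 bases before it in Nppb, and 9.03% of all 33469 windows hold this motif. CATTCC lies on the minus strand 131 bases before the start in Nppb and has no match in the Nppa window, and 14.2% of all windows hold it. Neither motif had a match in the windows of Nppc, Npr1, Npr3 or Corin. These matches are descriptions of letters and were not measured as binding.

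The libraries held 12699204 to 23397754 counts on genes. Levels are given in CPM, counts normalized to the total of their library with TMM scaling, and a cardiomyocyte score, the mean log2 CPM of 9 sarcomere and cardiomyocyte genes, was computed for each library. The score lay between 12.25 and 12.66 in the sham libraries other than those of animal 5, whose infarct, border and remote libraries had 10.93, 10.80 and 11.53. It spanned 7.97 to 11.61 in MI infarct zones and 6.25 to 11.59 in MI + Cell Sheet infarct zones. The border library of MI + Cell Sheet animal 1 stood apart at 3.76, with a summed level of the 9 genes of 149 CPM against 20986 CPM for the group median. In these bulk samples, fewer cells of a type and less RNA per cell cannot be told apart.

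The median of Nppa was higher in MI than in sham hearts in each zone, and with all animals the difference passed the test in the remote zone. Sham remote libraries ran from 254 to 3549 CPM with a median of 673 CPM, MI libraries from 1525 to 11981 CPM with a median of 3729 CPM, and MI + Cell Sheet libraries from 557 to 5765 CPM with a median of 1651 CPM. The MI and sham ranges overlapped through sham animals 5 (3549 CPM) and 6 (1816 CPM), while the other 4 sham libraries stayed at or below 709.8 CPM. Of all genes tested in this comparison 25.8% passed an adjusted p of 0.05, and Nppa was the only member called: its level was 4.21-fold higher (log2 difference 2.07 ± 0.72, SE, n = 6 and 6, adjusted p = 0.0494, edgeR's quasi-likelihood test). Without sham animal 5 the log2 difference was 2.78 ± 0.63 (edgeR adjusted p = 0.00237). This animal had the highest sham Nppa and the lowest sham Npr2 in each zone, so its omission is not independent of the values tested. The same limit holds below for every gene in which it lies at the edge of its group. The call was lost on leaving out any one of sham animals 1, 2, 3, 4 or 6 or MI animals 4, 5 or 6, with edgeR adjusted p-values up to 0.121. Markers of atrial tissue, which makes much Nppa, were high in some remote libraries: the summed level of 4 atrial genes was 479.8 CPM in sham animal 6, 168 CPM in MI animal 1, and 174 and 176 CPM in MI + Cell Sheet animals 1 and 4. The median over the remote libraries was 14.3 CPM in sham and 21.3 CPM in MI. Leaving out the libraries with an atrial score above 3 gave a log2 difference of 2.39 with an edgeR adjusted p of 0.0676. With the cardiomyocyte score as a covariate it was 0.04 (edgeR adjusted p = 0.975). The score of every MI remote library lay below that of every sham remote library except animal 5, so covariate and treatment can hardly be told apart here.

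**Figure D1:**
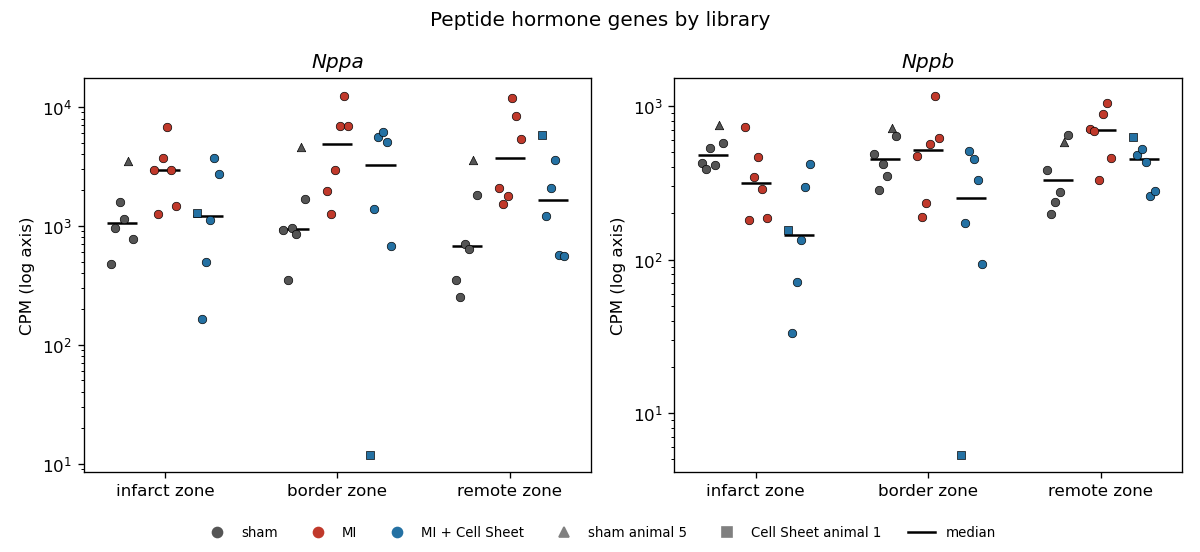
Levels of Nppa and Nppb in CPM (log axis) by zone, with 1 point for each library, grey for sham, red for MI and blue for MI + Cell Sheet, and a bar at the median of each 6. In every zone the triangle of sham animal 5 is the highest or next to highest sham point, and the square of MI + Cell Sheet animal 1 in the border zone lies far below all others at 11.9 CPM for Nppa and 5.35 CPM for Nppb.

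In the border zone, Nppa ran from 350.1 to 4564 CPM in sham libraries (median 935 CPM), from 1254 to 12299.6 CPM in MI libraries (median 4915 CPM) and from 11.9 to 6119.8 CPM in MI + Cell Sheet libraries (median 3247 CPM). The highest sham library was again animal 5, and the MI median was above every sham library. The MI against sham log2 difference was 1.78 ± 0.68 (n = 6 and 6, edgeR adjusted p = 0.0507), just short of the threshold, in a comparison where 41.7% of genes and 0 of the 6 tested members passed. Without sham animal 5 it was 2.49 ± 0.60 (edgeR adjusted p = 0.00379), and it also passed without MI animal 1 (1.96, adjusted p = 0.0422) or MI animal 2 (1.99, adjusted p = 0.0369) by edgeR.

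In the infarct zone, sham libraries had 473 to 3516 CPM of Nppa (median 1052 CPM), MI libraries 1264 to 6732 CPM (median 2972 CPM) and MI + Cell Sheet libraries 164 to 3713 CPM (median 1199 CPM). The groups overlapped in all pairs. MI against sham gave 1.17 ± 0.52 on the log2 scale (edgeR adjusted p = 0.0787), and 1.69 ± 0.45 without sham animal 5 (edgeR adjusted p = 0.00569).

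Nppb did not follow Nppa in every zone. In the remote zone its level ran from 199 to 647 CPM in sham (median 330.3 CPM), 329 to 1057 CPM in MI (median 702 CPM) and 262 to 631 CPM in MI + Cell Sheet libraries (median 456 CPM), and the groups overlapped. The MI against sham log2 difference was 0.83 ± 0.34 (edgeR adjusted p = 0.0898), or 0.99 ± 0.32 without sham animal 5 (edgeR adjusted p = 0.0209). In the infarct zone the sham median was above the MI median, with 388 to 759 CPM in sham (median 482 CPM), 182 to 737 CPM in MI (median 317 CPM) and 33.1 to 421 CPM in MI + Cell Sheet (median 145 CPM). The highest MI + Cell Sheet library lay within the sham range and the other 5 below it. In the border zone the ranges were 284 to 721 CPM in sham (median 455 CPM), 190.4 to 1163 CPM in MI (median 519.7 CPM) and 5.35 to 514 CPM in MI + Cell Sheet (median 251 CPM). MI against sham gave a log2 difference of 0.16 ± 0.40 (edgeR adjusted p = 0.771).

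Against sham, Nppb of the MI + Cell Sheet infarct zone was lower by 1.46 ± 0.49 on the log2 scale (fold 0.364, edgeR adjusted p = 0.0236), in a comparison where 57.9% of all genes and 3 of 6 tested members passed. The call was lost without MI + Cell Sheet animal 4 (-1.38, edgeR adjusted p = 0.0508) and without both animals that stand apart (-1.30, edgeR adjusted p = 0.0619). MI against sham in the same zone gave -0.49 ± 0.33 (edgeR adjusted p = 0.232), and -0.79 ± 0.26 (edgeR adjusted p = 0.0226) without MI animal 1, whose library held 86.6 CPM of the atrial genes against a group median of 17.6 CPM. Nppb in that library was the highest of the group at 737 CPM.

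The zone dependence of the Nppb difference passed a test of its own. The MI against sham difference was lower in the infarct zone than in the remote zone by 1.49 ± 0.37 on the log2 scale (log2 difference of differences -1.49, edgeR adjusted p = 0.00992, 28.9% of genes called, animals as blocks), and 3 of 6 tested members passed this test, the others being Npr3 and Corin. For Nppa the same quantity was -1.02 ± 0.58 (edgeR adjusted p = 0.202). Of the 9 cardiomyocyte genes, 6 were lower by the same test, with a median log2 difference of differences of -1.46. The score was not used as a covariate here, and the part of cardiomyocyte content in these differences was not tested. Within each library, log2 Nppb minus log2 Nppa had medians of -1.39, -1.24 and -1.35 in sham infarct, border and remote zones, and -3.17, -3.43 and -2.71 in those of MI. In MI + Cell Sheet hearts the medians were -2.91, -3.21 and -1.67. These ratios were not tested, and in the sham remote zone, the widest of the sham zones, they ran from -2.59 to 0.13.

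Nppc, whose peptide is made mainly by endothelial cells, was close to absent from these libraries. It had 0 counts in 20 of 54 libraries, more than 3 counts in 11, and 10 counts at most, in the remote library of MI animal 4 (0.673 CPM). A count of 0 allows up to 3 counts, which is 0.114 to 0.265 CPM at these depths. Group medians were 0 to 0.126 CPM, and no difference was detectable at this depth.

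Corin was lower in the infarct zone of both ligated groups than in sham, as were most of the cardiomyocyte genes (9 of 9 lower in MI and 8 of 9 in MI + Cell Sheet). In the infarct zone, sham libraries had 54 to 206 CPM (median 167 CPM), MI libraries 15.7 to 83.5 CPM (median 30.1 CPM) and MI + Cell Sheet libraries 1.55 to 131 CPM (median 12.7 CPM). Sham animal 5 was the lowest sham library and the only one within the MI range. MI against sham was 3.58-fold lower (log2 -1.84 ± 0.47, edgeR adjusted p = 0.00760). It was one of 2 members called in a comparison where 49.9% of all genes passed, and no single animal ended the call. MI + Cell Sheet against sham gave -2.13 ± 0.85 (edgeR adjusted p = 0.0486), and here the call was lost on leaving out sham animals 1, 2, 3, 4 or 6 or MI + Cell Sheet animals 1, 2, 3, 4 or 5, with edgeR adjusted p-values up to 0.0931, and without both sham animal 5 and MI + Cell Sheet animal 1 (-2.14, edgeR adjusted p = 0.0609).

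Border zone Corin ran from 41.4 to 181 CPM in sham (median 137 CPM), 11 to 81.0 CPM in MI (median 65.1 CPM) and 0.531 to 191 CPM in MI + Cell Sheet libraries (median 80.8 CPM). The MI libraries lay below all sham libraries except that of animal 5. The MI against sham log2 difference of -1.30 ± 0.50 just missed the threshold (edgeR adjusted p = 0.0547), and it passed without sham animal 5 (-1.48 ± 0.46, edgeR adjusted p = 0.0152) or without MI animal 5 (-1.48, edgeR adjusted p = 0.0476). MI + Cell Sheet against MI gave 0.61 ± 0.84 (edgeR adjusted p = 0.663) and 0.87 ± 0.57 without animal 1 (edgeR adjusted p = 0.300).

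In the remote zone, Corin was higher in MI + Cell Sheet than in MI hearts. Levels were 87.7 to 254 CPM in sham (median 194 CPM), 97.2 to 156 CPM in MI (median 133 CPM) and 78.7 to 349 CPM in MI + Cell Sheet (median 240.3 CPM). The library of MI + Cell Sheet animal 1 was the lowest of all 18 remote libraries, while the other 5 of its group, from 202 to 349 CPM, lay above every MI library. The log2 difference was 0.85 ± 0.27 (1.80-fold, edgeR adjusted p = 0.0456). Corin was one of 2 members called where 17.1% of all genes passed, and the difference was 1.03 ± 0.16 without animal 1 (edgeR adjusted p = 0.000459). As that animal had the lowest Corin of its group, its omission is not independent of the value tested. The call was lost on leaving out any other animal except MI animal 2, with edgeR adjusted p-values up to 0.104. With the cardiomyocyte score as a covariate 14.1% of genes and 0 of 6 members passed in this comparison, and Corin had a log2 difference of 0.52 ± 0.24 (edgeR adjusted p = 0.154). MI against sham in this zone gave -0.56 ± 0.21 (edgeR adjusted p = 0.0622), and -0.70 ± 0.13 without sham animal 5 (edgeR adjusted p = 0.000530).

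**Figure D2:**
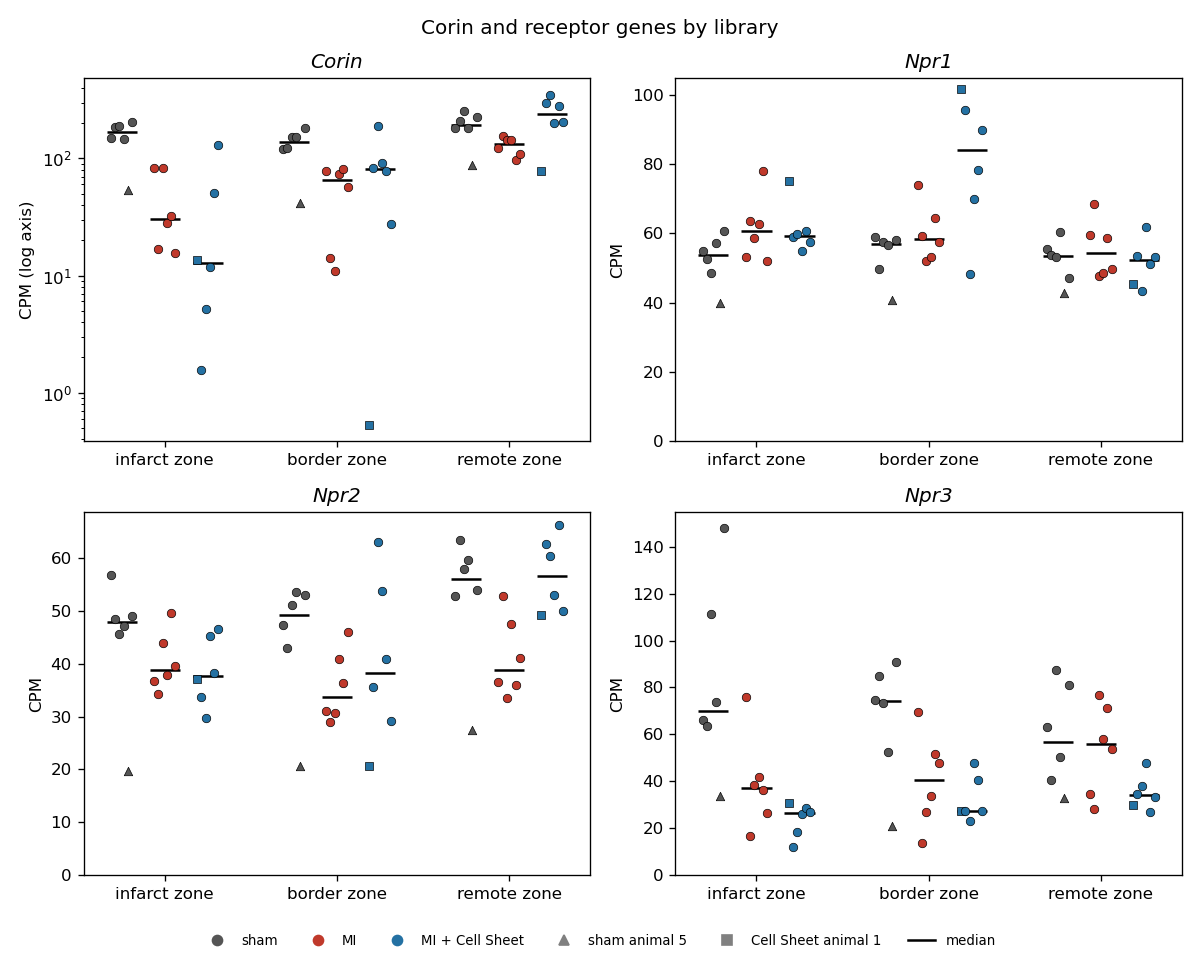
Levels of Corin (CPM, log axis) and of the receptor genes Npr1, Npr2 and Npr3 (CPM, linear axes from 0) by zone, with 1 point for each library and a bar at the median of each group of 6. The medians of Corin are lowest in the infarct zones of MI and MI + Cell Sheet hearts, Npr1 is high in 5 of 6 MI + Cell Sheet border libraries, and Npr3 of MI + Cell Sheet infarct libraries lies below every sham library.

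Over the 54 libraries, which include 3 from each heart, Corin ranked with the cardiomyocyte score at a Spearman rho of 0.905, against 0.69 for Npr2, 0.67 for Npr3, 0.33 for Nppb, -0.28 for Nppa and -0.34 for Npr1. These are descriptions, and how far single libraries set them was not tested. Log2 Corin minus the score stayed within -5.52 to -3.30 in all libraries, while Corin itself spanned 0.531 to 349 CPM. Log2 Nppa minus the score had medians of -2.36, -2.60 and -3.18 in sham infarct, border and remote zones, and of 1.88, 1.91 and -0.06 in those of MI. In sham animal 5 it was 0.85, 1.35 and 0.26, within the MI ranges of all 3 zones. In MI + Cell Sheet hearts the medians were 1.81, 0.65 and -1.54. With the score as a covariate, 4.15% of genes and 0 of 6 members passed for MI against sham in the infarct zone, and Corin had a log2 difference of -0.17 (edgeR adjusted p = 0.759). For MI + Cell Sheet against MI in the border zone, where 28.8% of genes then passed, Nppb (-1.03 ± 0.28, edgeR adjusted p = 0.0176) and Corin (0.65 ± 0.23, edgeR adjusted p = 0.0492) passed with the covariate, whereas 18.0% of genes and no member passed without it. Against sham in the same zone, Corin turned from -0.73 to 1.16 ± 0.26 (edgeR adjusted p = 0.00613, 28.2% of genes called). Both border fits hold the library of MI + Cell Sheet animal 1, with a score of 3.76 against a group median of 10.86. The MI border scores ran from 8.53 to 11.21. No covariate fit left that library out, so how far it sets these values was not tested. All 9 genes of the score were lower in MI than in sham in the infarct and border zones, so there the covariate and the treatment cannot be told apart. In the remote zone 4 of the 9 were lower. The score there ran from 11.31 to 12.02 in MI, below every sham library except that of animal 5, so this limit largely holds there too.

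**Figure D3:**
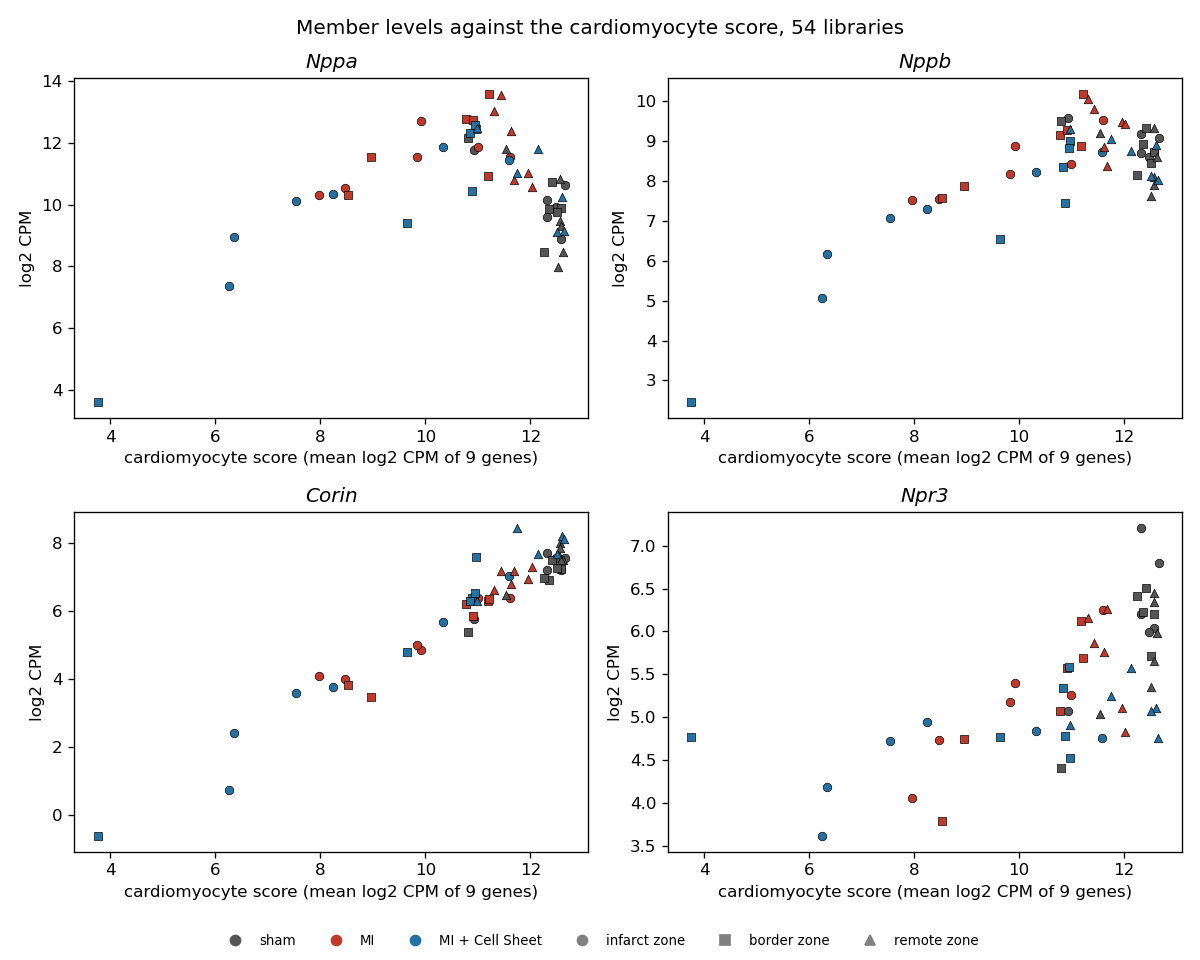
Log2 CPM of Nppa, Nppb, Corin and Npr3 against the cardiomyocyte score (mean log2 CPM of 9 genes) in 54 libraries, coloured by treatment and shaped by zone. Corin lies along a near straight band over the whole range, whereas Nppa is highest in libraries with scores near 10 to 12 and lower in most sham libraries, with scores above 12, and in the libraries with the lowest scores.

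Among the receptors, Npr1 was higher in the border zone of MI + Cell Sheet hearts than in sham. Its level ran from 40.7 to 58.9 CPM in sham (median 57.0 CPM), 52.1 to 74.1 CPM in MI (median 58.5 CPM) and 48.4 to 102 CPM in MI + Cell Sheet libraries (median 84.1 CPM). Of the MI + Cell Sheet libraries, 5 of 6 lay above every sham library, and animal 3 (48.4 CPM) lay within the sham range. The log2 difference from sham was 0.58 ± 0.17 (1.5-fold, edgeR adjusted p = 0.0174), with 43.6% of genes and 2 of 6 tested members called. It was 0.51 ± 0.17 both without sham animal 5 and without MI + Cell Sheet animal 1 (edgeR adjusted p = 0.0206 and 0.0372). With the cardiomyocyte score as a covariate the call was lost (0.44 ± 0.21, edgeR adjusted p = 0.134). Against MI the log2 difference was 0.44 ± 0.16 (edgeR adjusted p = 0.0826), and 0.56 without MI + Cell Sheet animal 3 (edgeR adjusted p = 0.00931). Adipocyte genes were high in most of the same libraries. The summed level of 5 such genes was 1116, 392.3, 712 and 1403 CPM in MI + Cell Sheet animals 1, 2, 5 and 6, where Npr1 was 102, 95.7, 78.2 and 89.9 CPM, and 19.6 and 59.9 CPM in animals 3 and 4, where Npr1 was 48.4 and 70.0 CPM. In MI border libraries it spanned 38.9 to 273 CPM. Of the 5 adipocyte genes, 4 passed the filter in this comparison and 2 were higher in MI + Cell Sheet than in MI. Genes of mural cells (vascular smooth muscle and pericytes) were higher too. Of 5 such genes 3 were called against MI, with a summed level of 521 to 681 CPM against 232 to 379 CPM. Of 6 endothelial genes 1 was called higher. The part of any of these cell types in the Npr1 difference was not tested.

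No treatment difference of Npr1 passed in the infarct and remote zones. Its group medians there spanned 52.3 to 60.7 CPM, and the fitted log2 differences between treatments lay between -0.12 and 0.23, none of which passed. With library size in place of TMM scaling, which moves the median of all genes by up to 0.27 log2 units, Npr1 passed for MI against sham in the infarct (0.51, edgeR adjusted p = 0.00671) and border zones (0.36, edgeR adjusted p = 0.0160), and for MI + Cell Sheet against sham in the infarct zone (0.52, edgeR adjusted p = 0.00195). That scaling also moved the share of called genes that were higher, from 45.5% to 67.1%, 44.2% to 64.1% and 45.1% to 68.6% for MI against sham in the infarct, border and remote zones. For MI + Cell Sheet against sham it moved from 49.5% to 66.3% in the infarct and from 46.8% to 71.2% in the border zone, and for MI + Cell Sheet against MI from 47.2% to 57.3% in the border and from 60.2% to 48.5% in the remote zone.

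Npr2 was higher in MI + Cell Sheet than in MI hearts in the remote zone. Between MI and sham no Npr2 difference passed in any zone with all animals. Among omissions of 1 animal, it passed only without sham animal 5, itself the lowest sham library for Npr2 in each zone. With the cardiomyocyte score as a covariate the MI against sham difference turned positive in each zone, and none passed. Remote libraries had 27.4 to 63.4 CPM in sham (median 56.0 CPM), 33.5 to 52.8 CPM in MI (median 38.7 CPM) and 49.3 to 66.3 CPM in MI + Cell Sheet (median 56.7 CPM). The lowest sham library was animal 5, and 5 of 6 MI libraries lay below every MI + Cell Sheet library. MI + Cell Sheet against MI gave 0.45 ± 0.12 on the log2 scale (1.37-fold, edgeR adjusted p = 0.0277) and 0.49 ± 0.13 without animal 1 (edgeR adjusted p = 0.00752). The call was lost on leaving out MI animals 1, 3 or 5 or MI + Cell Sheet animals 2, 3 or 5, with edgeR adjusted p-values up to 0.0694, and with the cardiomyocyte score as a covariate (0.39, edgeR adjusted p = 0.0532). MI against sham gave -0.35 ± 0.18 with all animals (edgeR adjusted p = 0.168) and -0.48 ± 0.11 without sham animal 5 (edgeR adjusted p = 0.00353).

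The same dependence on sham animal 5 held for Npr2 in the other zones. Border medians were 49.2, 33.7 and 38.2 CPM in sham, MI and MI + Cell Sheet, and sham animal 5 had 20.7 CPM. MI against sham moved from -0.33 ± 0.21 (edgeR adjusted p = 0.217) to -0.48 ± 0.12 without it (edgeR adjusted p = 0.00559). In the infarct zone, with medians of 47.8, 38.7 and 37.7 CPM and 19.7 CPM in sham animal 5, the difference moved from -0.14 ± 0.20 (edgeR adjusted p = 0.582) to -0.29 ± 0.10 (edgeR adjusted p = 0.0280). With all animals its sign turned to 0.15 when library size replaced TMM scaling. MI + Cell Sheet against sham in that zone moved from -0.21 ± 0.23 (edgeR adjusted p = 0.445) to -0.37 ± 0.12 without sham animal 5 (edgeR adjusted p = 0.0146), and its sign turned to 0.091 with library size and all animals. Without sham animal 5, 4 of 6 tested members passed for MI against sham in each zone, beside 64.8%, 60.8% and 46.5% of all genes in the infarct, border and remote zones.

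Npr3, the clearance receptor, was lower than sham in the infarct zone of both ligated groups. Sham libraries had 33.6 to 148 CPM (median 69.8 CPM), MI libraries 16.5 to 75.8 CPM (median 37.2 CPM) and MI + Cell Sheet libraries 12.1 to 30.6 CPM (median 26.6 CPM). All 6 MI + Cell Sheet libraries lay below all 6 sham libraries, the only treatment comparison in which the ranges of a tested member did not overlap, in a comparison where 20.9% of all genes had groups that did not overlap. MI + Cell Sheet against sham was 3.48-fold lower (log2 -1.80 ± 0.34, edgeR adjusted p = 0.00120), and no single animal ended the call. MI against sham was -1.07 ± 0.38 (edgeR adjusted p = 0.0337). This call was lost on leaving out sham animals 3 or 6 or MI animals 2, 3, 4, 5 or 6, with edgeR adjusted p-values up to 0.0855, and with library size in place of TMM (-0.81, edgeR adjusted p = 0.0684). With the cardiomyocyte score as a covariate neither difference passed, and that of MI against sham was 0.16 (edgeR adjusted p = 0.857).

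Npr3 of the border zone had 21.1 to 91.0 CPM in sham (median 74.2 CPM), 13.7 to 69.7 CPM in MI (median 40.6 CPM) and 22.9 to 47.9 CPM in MI + Cell Sheet (median 27.3 CPM). Every MI + Cell Sheet library lay below every sham library except that of animal 5. The log2 difference was -1.06 ± 0.32 (edgeR adjusted p = 0.0176), and -1.25 ± 0.21 without sham animal 5 (edgeR adjusted p = 0.000367), while with library size in place of TMM the call was lost (-0.76, edgeR adjusted p = 0.0503). It was also lost with the cardiomyocyte score as a covariate (-0.83 ± 0.39, edgeR adjusted p = 0.135). MI against sham gave -0.71 ± 0.39 (edgeR adjusted p = 0.156), and -0.90 ± 0.32 without sham animal 5 (edgeR adjusted p = 0.0296). In the remote zone, the sham, MI and MI + Cell Sheet medians were 56.7, 56.1 and 34.0 CPM. MI + Cell Sheet against MI was -0.63 ± 0.23 there (edgeR adjusted p = 0.0683), and -0.81 ± 0.23 without the libraries high in atrial genes (edgeR adjusted p = 0.0131). It also passed without MI animal 1 (-0.74, edgeR adjusted p = 0.0480) or MI animal 2 (-0.76, edgeR adjusted p = 0.0227). Against sham it was -0.77 ± 0.23 (edgeR adjusted p = 0.317), in a comparison where only 0.00660% of genes, 1 gene, passed.

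The comparison of MI + Cell Sheet with untreated MI sets ligated hearts with the sheet beside ligated hearts left untreated. The paper describes no control sheet and reports more deaths in the untreated group. Whether the surviving animals also differed in other ways was not tested. In the infarct zone 0% of 16196 genes passed by edgeR (1341 at an unadjusted p under 0.05, and 59 genes by DESeq2). The fitted log2 differences were -1.01 ± 0.65 for Nppa, -0.99 ± 0.55 for Nppb, -0.72 ± 0.33 for Npr3 and -0.28 ± 0.87 for Corin. Those of Npr1 and Npr2 were -0.01 ± 0.11 and -0.07 ± 0.13. In the border zone no member passed, with -0.76 ± 0.96 for Nppa and -1.04 ± 0.75 for Nppb. In the remote zone, Nppa and Nppb gave -1.18 ± 0.67 (edgeR adjusted p = 0.226) and -0.68 ± 0.29 (edgeR adjusted p = 0.115). Setting aside MI + Cell Sheet animal 1, whose remote library had 5765 CPM of Nppa and a cardiomyocyte score of 10.97 below all other remote libraries, Nppa was 3.28-fold lower (log2 -1.71 ± 0.63, edgeR adjusted p = 0.0424) and Nppb 1.77-fold lower (-0.82 ± 0.28, edgeR adjusted p = 0.0303). Then 4 of 6 members passed, with 41.6% of all genes. For Nppa and for Nppb this was the only omission of 1 animal that gave a call. Animal 1 had the highest Nppa of its remote group, so for Nppa the omission is not independent of the value tested. Without the libraries high in atrial genes, Nppa was -2.41 ± 0.63 (edgeR adjusted p = 0.00900) and Nppb -0.85 ± 0.33 (edgeR adjusted p = 0.0530). Of these 2 groups, the remote libraries high in atrial genes were MI animal 1 and MI + Cell Sheet animals 1 and 4. This setting is thus not separate from setting aside animal 1, leaves fewer animals, and was added after seeing the data. Against sham the remote zone of MI + Cell Sheet hearts gave 0.89 ± 0.74 for Nppa (edgeR adjusted p = 0.740) and 0.14 ± 0.33 for Nppb (edgeR adjusted p = 0.931). In the border zone, Nppa of MI + Cell Sheet against sham was 1.01 ± 0.98 (edgeR adjusted p = 0.414), and 1.96 ± 0.59 without both sham animal 5 and MI + Cell Sheet animal 1 (edgeR adjusted p = 0.0124). The 3 treatment comparisons of a zone share their libraries and are set side by side only.

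**Figure D4:**
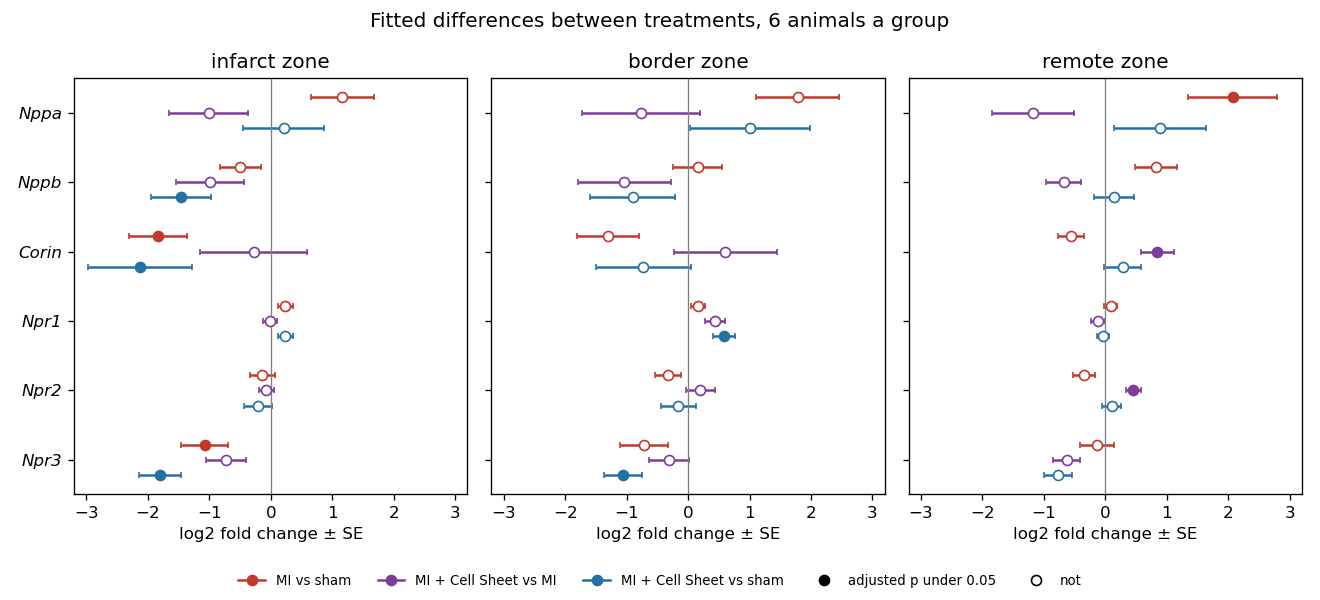
Fitted log2 fold changes with their standard errors for the 6 tested genes in each zone, for MI against sham (red), MI + Cell Sheet against MI (purple) and MI + Cell Sheet against sham (blue), filled where the adjusted p is under 0.05. The filled points are Nppa (MI against sham) and Npr2 and Corin (MI + Cell Sheet against MI) in the remote zone, Npr1 and Npr3 (MI + Cell Sheet against sham) in the border zone, and Corin, Npr3 and Nppb in the infarct zone.

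Within hearts, the zones differed in sham animals too. In sham hearts, with the animal as a block, Nppb was higher in the infarct zone position (anterior wall) than in the septum by 0.52 ± 0.13 on the log2 scale (edgeR adjusted p = 0.00826) and Npr3 by 0.43 ± 0.10 (edgeR adjusted p = 0.00297). Corin (-0.33 ± 0.08, edgeR adjusted p = 0.00405) and Npr2 (-0.25 ± 0.08, edgeR adjusted p = 0.0199) were lower. That is 4 of 6 members beside 32.4% of all genes. In the lateral wall against the septum, where 25.7% of genes were called, Nppa (0.49 ± 0.14) and Nppb (0.39 ± 0.09) were higher and Corin (-0.61 ± 0.10) and Npr2 (-0.24 ± 0.08) lower, with edgeR adjusted p-values of 0.0239, 0.0101, 0.00163 and 0.0399. The Npr2 calls were lost without sham animal 2, 3, 4 or 5 in the anterior wall and 1, 2, 3, 4 or 5 in the lateral wall, with edgeR adjusted p-values up to 0.120. The Nppa call of the lateral wall was lost without sham animal 1 or 4 (edgeR adjusted p = 0.0740 and 0.0526). Nppa of the anterior wall passed without animal 6 alone (0.87, edgeR adjusted p = 0.00562), the animal with the high atrial genes in its septum.

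In MI hearts, Corin was lower in the infarct zone than in the septum of the same heart. So were 8 of the 9 cardiomyocyte genes, with a median log2 difference of -1.85 over the 9. All 6 MI infarct libraries had less Corin than all 6 MI remote libraries, 3.66-fold lower in the fit (log2 -1.87 ± 0.37, edgeR adjusted p = 0.00995). Groups did not overlap in 7.22% of genes, with 36.4% of genes and 2 of 6 tested members called. The second was Nppb at -0.98 ± 0.30 (edgeR adjusted p = 0.0360), a call lost without MI animals 2, 4, 5 or 6, with edgeR adjusted p-values up to 0.0963. Npr3 (-0.54 ± 0.27, edgeR adjusted p = 0.151) passed without MI animal 1 (-0.84, edgeR adjusted p = 0.00607). In the MI border zone, Corin again did not overlap the remote libraries, as was so for 6.50% of genes (-1.60 ± 0.53, edgeR adjusted p = 0.0815), but 0% of genes passed by edgeR, with 5943 at an unadjusted p under 0.05 and 4370 called by DESeq2, in which Corin passed (-1.61, DESeq2 adjusted p = 0.00556).

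In MI + Cell Sheet hearts, Corin was lower in the infarct zone than in the septum by 3.74 ± 1.00 on the log2 scale (edgeR adjusted p = 0.0142) and in the border zone by 2.20 ± 0.73 (edgeR adjusted p = 0.0354), and fell by 1.66 ± 0.29 without animal 1 (edgeR adjusted p = 0.00404). Of the 9 cardiomyocyte genes, 9 were lower in the infarct zone (median log2 difference -3.55) and 3 in the border zone (median -2.17). The infarct zone comparison called 62.8% of genes and 2 of 6 members, the other being Npr2 (-0.57 ± 0.14, edgeR adjusted p = 0.00992), whose infarct libraries (29.7 to 46.5 CPM) all lay below its remote libraries (49.3 to 66.3 CPM), as was so for 9.04% of genes. In the same comparison Npr3 (-0.59 ± 0.22, edgeR adjusted p = 0.0504) passed without MI + Cell Sheet animal 1 or 5 (edgeR adjusted p = 0.0362 and 0.0361), and Nppb (-1.62 ± 0.65, edgeR adjusted p = 0.0620) without animal 5 or 6 (edgeR adjusted p = 0.0424 and 0.0208). Npr1 (0.26 ± 0.11, edgeR adjusted p = 0.0826) passed without animal 4 (0.35, edgeR adjusted p = 0.0424). The border zone comparison called 56.4% of genes and 3 of 6 members, with Npr1 higher (0.66 ± 0.14, edgeR adjusted p = 0.00702) and Npr2 lower (-0.54 ± 0.18, edgeR adjusted p = 0.0397). Without animal 1 the border zone Npr2 difference was -0.41 (edgeR adjusted p = 0.0677) and that of Npr1 0.54 ± 0.13 (edgeR adjusted p = 0.0108). The border zone calls of Corin and Npr2 were also lost without MI + Cell Sheet animals 2, 5 or 6, with edgeR adjusted p-values up to 0.0918 and 0.103.

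The difference between MI and sham was lower in the infarct than in the remote zone for Corin (-1.53 ± 0.39, edgeR adjusted p = 0.0115) and Npr3 (-0.95 ± 0.31, edgeR adjusted p = 0.0354) as it was for Nppb, and the Npr3 call was lost without any one of sham animals 2, 3, 4 or 6 or MI animals 2, 3, 4, 5 or 6, with edgeR adjusted p-values up to 0.0762. The same was so for 6 of the 9 cardiomyocyte genes, with a median of -1.46 over the 9. In the test of the border against the remote zone for MI against sham, and in both such tests for MI + Cell Sheet against MI, 0% of genes passed by edgeR, with 3995, 4190 (infarct) and 3430 (border) genes at an unadjusted p under 0.05. DESeq2 was not run on these. Npr1 of MI + Cell Sheet against MI, border minus remote, was 0.56 ± 0.17 (unadjusted p = 0.00555, edgeR adjusted p = 0.125).

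Ordered by median, Nppa was highest in the MI border zone and lowest in the sham remote zone, Nppb highest in the MI remote and lowest in the MI + Cell Sheet infarct zone. Corin, Npr2 and Npr3 ended with a ligated group: MI + Cell Sheet infarct for Corin and Npr3, and MI border for Npr2. Npr1 was highest in the MI + Cell Sheet border zone. For every one of the 6 genes the ranges of neighbours in this order overlapped, so the order of neighbouring groups is within their spread.

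The enzymes and effectors around the receptors were followed in a list of 27 genes for peptide processing and removal, soluble guanylyl cyclase, cGMP-dependent protein kinase and its targets, phosphodiesterases and cGMP export, of which 25 passed the filter in each treatment comparison. In the infarct zone 8 were higher and 5 lower in MI than in sham, where 49.9% of all genes passed, with a median log2 difference of -0.03 against -0.02 over all genes tested. Irag1, a kinase substrate on smooth muscle calcium stores, was higher (1.76 ± 0.23, edgeR adjusted p = 0.000222), as were the cGMP phosphodiesterase Pde5a (0.96 ± 0.17, adjusted p = 0.00145) and Pde3b (0.95 ± 0.36, adjusted p = 0.0440). Pde3a, the phosphodiesterase of cardiomyocytes and smooth muscle, was lower (-1.45 ± 0.28, edgeR adjusted p = 0.00214), as were the proprotein convertase Pcsk6, which activates Corin (-0.85 ± 0.26, adjusted p = 0.0163), and Pde1b (-0.71 ± 0.24, adjusted p = 0.0295). In the border zone, where 41.7% of all genes passed, 7 were higher and 4 lower, again with Irag1 (1.27), Pde5a (1.23) and Pde3b (1.02) as the largest rises and Pde3a (-1.30), Pcsk6 (-0.90) and Pde2a (-0.57) as the largest falls. In the remote zone, where 25.8% of all genes passed, 3 were higher and 5 lower, led by Pde1a (0.86), Pde5a (0.84) and Pde10a (0.74), and by Pde3a (-0.83), the cGMP-dependent kinase Prkg1 (-0.73) and Pde2a (-0.56).

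Between MI + Cell Sheet and MI, none of the 25 passed in the infarct zone, where 0% of all genes did. Of the same 25, 6 were higher and 0 lower in the border zone beside 18.0% of all genes called, with Pde1b (2.15 ± 0.36, edgeR adjusted p = 0.00246), Prkg1 (1.04 ± 0.23, adjusted p = 0.00862) and Irag1 (0.93 ± 0.24, adjusted p = 0.0187) the largest, and with a median of 0.24 over the list against -0.0044 over all genes tested. Mural cell genes, which mark vascular smooth muscle and pericytes, moved with them: 3 of 5 were higher in MI + Cell Sheet, with a summed level of 521 to 681 CPM against 232 to 379 CPM in MI, and their part in the result was not tested. In the remote zone, beside 17.1% of all genes called, 5 were higher and 2 lower, with Prkg1 (1.13 ± 0.13, edgeR adjusted p = 0.00175), Pde3a (0.66 ± 0.21, adjusted p = 0.0487) and the peptidase Ide (0.59 ± 0.11, adjusted p = 0.00798) the largest rises, and Pde1a (-0.66) and Gucy1a2 (-0.66) the falls. Of the 5 mural cell genes, 2 were higher in this zone too, with a summed level of 418 to 568 CPM against 281 to 336 CPM in MI. Their part here was not tested either. Against sham, MI + Cell Sheet hearts had 9 higher and 4 lower in the infarct, 8 higher and 1 lower in the border and 0 in the remote zone, beside 57.9%, 43.6% and 0.00660% of all genes. Against sham, Irag1 was 2.19 ± 0.22 higher in the infarct and 2.18 ± 0.23 in the border zone (edgeR adjusted p = 2.47e-05 and 3.81e-05), and Mme, which encodes neprilysin, the enzyme that breaks down natriuretic peptides, was 1.89 ± 0.61 higher in the border zone (adjusted p = 0.0250).

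By Spearman rank correlation over the 54 libraries, among 13300 genes with a mean log2 CPM of at least 1, the gene most like Nppb was Ankrd1, a cardiac ankyrin repeat protein (rho 0.93), followed by Cpa6 and Avpi1 (0.82 and 0.81). Nppa was most like Ankrd23, of the same protein family as Ankrd1 (0.86), then Akip1 and Rnd1 (0.83 and 0.82). Corin was most like Chrm2, the cardiac muscarinic receptor, Dmd, which encodes dystrophin, and Ccdc141 (0.97, 0.97 and 0.97). Npr2 was most like Phldb1 (0.91), Ankrd50 and Rusc2, and Npr3 most like Cgnl1 (0.87), the mitochondrial ribosomal RNA mt-Rnr2 and the sarcomere gene Tcap. The libraries share animals, depth and cell makeup, and these values are a description of them.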

How the data were processed

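Counts per gene were deposited for each of the 54 libraries as raw whole numbers. The authors trimmed and aligned poly(A) RNA-seq reads with STAR to the rat genome mRatBN7.2, and the counting tool and its strand setting are not given in the sources used here. The 5 summary lines of each table, 17.0% to 42.8% of its counts, were left out. Comparisons used edgeR 4.0.16 (R 4.3.3): TMM scaling, its default filter on low counts, quasi-likelihood F tests and Benjamini-Hochberg adjustment over all genes tested, with calls at an adjusted p under 0.05. Zones of the same heart were compared with the animal as a block. DESeq2 1.42.0, other scalings and filters, a cardiomyocyte covariate and the omission of each animal were the alternatives. The exclusion of libraries with an atrial score above 3, and of both animals that stand apart, was added after seeing the data. Scores are means of log2 CPM with a prior count of 2. Members and lists were chosen with earlier results of these data known. Named pathway genes are up to 3 largest rises and 3 largest falls among those called, and the 3 most similar genes are given for each member except Nppc, whose counts are near 0, and Npr1, for which they are not reported here. None of the 135 pairs of libraries within a group held identical counts. Across treatments, replicate numbers showed no pairing: same-number correlations of deviations ran from -0.81 to 0.67, and in no comparison were all 6 above 0.1. The test was checked on simulated data with few changed genes and no differences between animals. That check does not cover the large shares of genes called here or animals that stand apart.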

Additional observations from a re-analysis of the deposited data

Results flagged for a closer look

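Within groups of 6 libraries, a library at the edge stood far from the rest by Dixon's criterion in 9 of 63 groups of a gene's levels. Sham animal 5 accounted for 5 of them. The criterion was applied to CPM without a log, some groups are Nppc near 0 counts, and zones of the same animal are not independent. No chance rate is therefore set beside this count. Its Nppa was high, at 4564 CPM in the border and 3516 CPM in the infarct zone, and its Npr2 low, at 27.4, 20.7 and 19.7 CPM in the remote, border and infarct zones. Npr1 was high in the infarct zone of MI + Cell Sheet animal 1 at 75.1 CPM. Nppc stood out at 0.673 CPM in the remote zone of MI animal 4, 0.238 CPM in the border zone of sham animal 2 and 0.0986 CPM in the border zone of MI + Cell Sheet animal 6, all 10 counts or fewer.

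The MI against sham difference itself differed between the infarct and remote zones for 3 genes, by an interaction term with the animal as a block. The log2 difference of differences was -1.49 for Nppb, -0.95 for Npr3 and -1.53 for Corin. Its median over the 9 cardiomyocyte genes was -1.46.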

How the results depend on the processing

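The cause of these changes was not tested. Beside each number of members called stands the percentage of all genes in the same fit that were called, which for DESeq2 counts genes its own filter left without an adjusted p as not called. For the ranges on leaving out each animal, the range of the number of genes called is given instead. With DESeq2, the number of genes called was 59 (MI + Cell Sheet against MI, infarct), 180 (MI + Cell Sheet against sham, remote) and 4370 (border against remote, MI). The number of members called was 2 (MI against sham, border, 26.4%), 3 (MI against sham, remote, 16.5%), 1 (border against remote, MI, 15.4%) and 4 (infarct against remote, MI + Cell Sheet, 39.6%). With library size in place of TMM, the number of members called was 2 (MI against sham, border, 41.9%), 1 (MI + Cell Sheet against sham, border, 46.7%) and 1 (MI + Cell Sheet against MI, remote, 14.3%). The log2 difference changed sign to 0.15 (MI against sham, infarct), 0.091 (MI + Cell Sheet against sham, infarct), 0.11 (MI + Cell Sheet against sham, border) and 0.088 (infarct against remote, MI) for Npr2, 0.011 (MI + Cell Sheet against MI, infarct), 0.028 (MI + Cell Sheet against sham, remote) and -0.022 (infarct against remote, sham) for Npr1, 0.0073 (MI against sham, remote), 0.083 (border against remote, MI + Cell Sheet) and 0.045 (MI + Cell Sheet against MI, infarct minus remote) for Npr3. With the cardiomyocyte score as a covariate, the number of genes called was 654 (MI against sham, infarct), 1048 (MI + Cell Sheet against sham, infarct), 1003 (MI against sham, border), 4682 (MI + Cell Sheet against MI, border), 4503 (MI + Cell Sheet against sham, border), 2430 (MI against sham, remote) and 13 (MI + Cell Sheet against sham, remote). The number of members called was 0 (MI against sham, infarct, 4.15%), 0 (MI + Cell Sheet against sham, infarct, 6.68%), 2 (MI + Cell Sheet against MI, border, 28.8%), 1 (MI + Cell Sheet against sham, border, 28.2%), 0 (MI against sham, remote, 15.9%) and 0 (MI + Cell Sheet against MI, remote, 14.1%). The log2 difference changed sign to 0.076 (MI against sham, infarct), 0.083 (MI + Cell Sheet against sham, border) and -0.065 (MI + Cell Sheet against sham, remote) for Nppb, 0.26 (MI against sham, infarct), 0.018 (MI + Cell Sheet against MI, infarct), 0.28 (MI + Cell Sheet against sham, infarct), 0.22 (MI against sham, border), 0.32 (MI + Cell Sheet against sham, border) and 0.23 (MI against sham, remote) for Npr2, 0.16 (MI against sham, infarct) and 0.59 (MI against sham, border) for Npr3, 0.093 (MI + Cell Sheet against MI, infarct), 0.51 (MI + Cell Sheet against sham, infarct), 0.48 (MI against sham, border), 1.16 (MI + Cell Sheet against sham, border) and 0.18 (MI against sham, remote) for Corin, 0.013 (MI + Cell Sheet against sham, remote) for Npr1. Without the filter on low counts, the number of members called was 0 (MI against sham, remote, 11.6%) and 1 (MI + Cell Sheet against MI, remote, 6.46%). The log2 difference changed sign to 0.0035 (MI + Cell Sheet against MI, infarct) for Npr1. Without the libraries high in atrial genes, the number of genes called was 6610 (MI + Cell Sheet against MI, remote). The number of members called was 0 (MI against sham, remote, 18.3%) and 4 (MI + Cell Sheet against MI, remote, 42.5%). The log2 difference changed sign to 0.042 (MI + Cell Sheet against MI, infarct) for Corin, 0.093 (MI against sham, remote) for Npr3, -0.055 (MI + Cell Sheet against sham, remote) for Nppa. With at least 10 counts in every library, the number of members called was 1 (MI against sham, border, 44.3%). Without sham animal 5 and MI + Cell Sheet animal 1, the number of genes called was 128 (MI + Cell Sheet against sham, remote).

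Without the block on the animal in zone comparisons, the number of genes called was 1081 (infarct against remote, sham), 307 (border against remote, sham), 3409 (border against remote, MI), 1431 (MI against sham, infarct minus remote) and 6 (MI + Cell Sheet against MI, border minus remote). The number of members called was 0 (infarct against remote, sham, 7.17%), 0 (border against remote, sham, 2.04%), 1 (infarct against remote, MI, 33.1%), 1 (border against remote, MI, 21.7%), 4 (infarct against remote, MI + Cell Sheet, 61.7%), 1 (border against remote, MI + Cell Sheet, 47%) and 0 (MI against sham, infarct minus remote, 8.7%). The log2 difference changed sign to 0.19 (MI + Cell Sheet against MI, infarct minus remote) for Nppa. With the replicate number as a block in treatment comparisons, where it pairs no samples, the number of genes called was 4193 (MI against sham, border), 1214 (MI + Cell Sheet against MI, border), 2 (MI + Cell Sheet against MI, remote) and 0 (MI + Cell Sheet against sham, remote). The number of members called was 1 (MI against sham, infarct, 48%), 1 (MI against sham, border, 26.8%), 1 (MI + Cell Sheet against sham, border, 37.8%), 3 (MI against sham, remote, 29%) and 0 (MI + Cell Sheet against MI, remote, 0.013%). The log2 difference changed sign to -0.10 (MI + Cell Sheet against sham, infarct) for Nppa, -0.023 (MI against sham, border) for Nppb.

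Leaving out each animal in turn gave 1016 of the members' differences on the same side of the threshold and in the same direction, 73 that lost and 26 that gained a call, and 37 that changed sign, with these ranges. The number of members called ran from 1 to 4 (MI against sham, infarct, 6689 to 10434 genes), 1 to 4 (MI + Cell Sheet against sham, infarct, 7975 to 11159 genes), 0 to 4 (MI against sham, border, 5068 to 9641 genes), 0 to 1 (MI + Cell Sheet against MI, border, 1941 to 3083 genes), 0 to 4 (MI against sham, remote, 2744 to 7177 genes), 0 to 4 (MI + Cell Sheet against MI, remote, 1096 to 6450 genes), 2 to 4 (border against remote, sham, 2437 to 3838 genes), 1 to 3 (infarct against remote, MI, 3236 to 5928 genes), 2 to 4 (infarct against remote, MI + Cell Sheet, 8170 to 10054 genes), 1 to 3 (border against remote, MI + Cell Sheet, 6615 to 9063 genes). Without sham animal 5, 4 members passed for MI + Cell Sheet against sham, infarct, beside 70.0% of all genes. For Corin the log2 difference ran from -1.38 to 0.042 (MI + Cell Sheet against MI, infarct). For Npr1 the log2 difference ran from -0.078 to 0.081 (MI + Cell Sheet against MI, infarct), -0.094 to 0.013 (MI + Cell Sheet against sham, remote), -0.065 to 0.034 (infarct against remote, sham), -0.018 to 0.073 (border against remote, sham). For Npr2 the log2 difference ran from -0.13 to 0.0054 (MI + Cell Sheet against MI, infarct), -0.027 to 0.16 (MI + Cell Sheet against sham, remote), -0.12 to 0.10 (infarct against remote, MI), -0.050 to 0.16 (MI against sham, border minus remote). For Nppa the log2 difference ran from -0.23 to 0.66 (MI + Cell Sheet against sham, infarct), -0.055 to 0.25 (border against remote, MI), -0.051 to 1.15 (border against remote, MI + Cell Sheet), -1.03 to 0.14 (MI + Cell Sheet against MI, infarct minus remote), -0.16 to 1.08 (MI + Cell Sheet against MI, border minus remote). For Nppb the log2 difference ran from -0.22 to 0.33 (MI against sham, border), -0.0083 to 0.34 (MI + Cell Sheet against sham, remote), -0.99 to 0.018 (MI + Cell Sheet against MI, border minus remote). The number of genes called ran from 1941 to 3083 (MI + Cell Sheet against MI, border), 2744 to 7177 (MI against sham, remote), 1096 to 6450 (MI + Cell Sheet against MI, remote), 0 to 17 (MI + Cell Sheet against sham, remote), 2437 to 3838 (border against remote, sham), 3236 to 5928 (infarct against remote, MI), 0 to 1539 (MI against sham, border minus remote), 0 to 2011 (MI + Cell Sheet against MI, infarct minus remote), 0 to 216 (MI + Cell Sheet against MI, border minus remote). For Npr3 the log2 difference ran from -0.27 to 0.0040 (MI against sham, remote), -0.062 to 0.26 (border against remote, sham), -0.19 to 0.28 (MI + Cell Sheet against MI, infarct minus remote). A count of 0 for Nppc allows up to 3 counts, so its differences were below what this depth detects, and the 9 groups of 6 limit the rest.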
